A study of Mus musculus with 12 samples.

Results

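Messenger RNA of inducible nitric oxide (NO) synthase, *Nos2*, and of 9 genes that supply it with substrate and cofactor or compete with it for substrate, was followed in mouse MC38CEA tumour cells. The 10 genes are *Nos2*, *Gch1*, *Pts*, *Spr*, *Ass1*, *Asl*, *Slc7a1*, *Slc7a2*, *Arg1* and *Arg2*. They were taken by symbol from a table of 43269 genes, and all 10 had a row. MC38CEA is a mouse colon adenocarcinoma line that makes carcinoembryonic antigen. Cells received Cas9 and then guide RNAs for *Adam17*, the gene of a protease that releases membrane proteins from the cell surface (*Adam17*-KD cells), or a guide RNA for EGFP in its place (control cells). Each kind of cell was grown without cytokines (unstimulated) or with IL1β and IFNγ at 10 ng/ml each for 6 h (stimulated). All 4 groups had received Cas9 and a guide RNA, were edited as whole populations and not as clones, and had 3 libraries each, 12 in all. The sample titles call the control libraries WT and the *Adam17*-KD libraries KO. Whether the 3 replicates came from separate editing experiments is not stated, so p-values measure the spread between these libraries, which may be technical.

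Nos2 makes NO and citrulline from arginine. It does so as a pair of subunits that need tetrahydrobiopterin, and without that cofactor the enzyme makes little NO. Gch1 carries out the rate-limiting step of tetrahydrobiopterin synthesis, and Pts and then Spr complete the pathway. Slc7a1 and Slc7a2 carry arginine into the cell. Ass1 and Asl turn citrulline back into arginine, and the arginases Arg1 and Arg2 split arginine to urea and ornithine. In macrophages of the mouse, *Nos2* is silent until bacterial products or cytokines such as IL1β and IFNγ switch on its promoter through NF-κB and Irf1.

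The libraries held between 13156871 and 25443307 counts. Levels are given as counts per 1000000 (CPM) of a library's total, scaled by TMM, edgeR's trimmed mean of log ratios. A gene was tested if it passed edgeR's filter on low counts, which 14673 genes did, and it was called when the Benjamini-Hochberg adjusted p over those genes, from edgeR's quasi-likelihood test, was under 0.05. *Adam17* itself fell by 0.75 ± 0.12 (SE) on the log2 scale without cytokines (adjusted p = 0.0136) and by 0.81 ± 0.12 with them (adjusted p = 0.0327), from 87.7 ± 9.41 to 52.2 ± 4.39 CPM and from 105 ± 9.76 to 59.8 ± 2.63 CPM (SD, n = 3). Of 13 epithelial and colon markers, among them *Epcam*, *Cdh1* and *Krt8*, 1 was tested, and their summed level was 0.437 to 1.69 CPM over the 12 libraries, so the epithelial character in the cell line's name was not visible in these markers. The summed level of 8 fibroblast markers was 842 to 1152 CPM in unstimulated *Adam17*-KD cells against 409 to 604 CPM in control cells, and 745 to 974 against 261 to 658 CPM after stimulation. The largest parts were *Col3a1* (662 against 324 CPM on average without cytokines) and *Col1a2* (234 against 137 CPM). *Col1a1* went the other way, at 2.49 against 2.91 CPM without cytokines and 1.82 against 2.46 CPM with them. *Lum* and *Thy1* averaged at most 0.248 CPM in any group. The 11 leukocyte markers in the table summed to 17.3 to 34.9 CPM and 5 endothelial markers to 0.323 to 1.07 CPM. Replicate 2 of the stimulated control cells stood apart from the other libraries of its group. Its counts differed from theirs by 73.4 to 74.5 times the sampling noise (chi-square per degree of freedom), against 16.9 to 41.9 for all other pairs of replicates, and it was also the shallowest library. Values without it are given beside the results of the members that it moved. In RNA from whole cultures, fewer responding cells and less RNA per cell cannot be told apart.

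Positions are from GENCODE M21 on GRCm38 (mm10), the build named in the labels. *Nos2* spans chromosome 11, 78920787 to 78960254, on the plus strand. *Gch1* lies on chromosome 14 (47153895 to 47189413, minus), *Pts* on chromosome 9 (50521617 to 50528724, minus) and *Spr* on chromosome 6 (85130176 to 85137766, minus). *Ass1* is on chromosome 2 (31470207 to 31520672, plus) and *Asl* on chromosome 5 (130011258 to 130029247, minus). *Slc7a1* is also on chromosome 5 (148327410 to 148399904, minus), *Slc7a2* on chromosome 8 (40862396 to 40922308, plus), *Arg1* on chromosome 10 (24915221 to 24927484, minus) and *Arg2* on chromosome 12 (79130777 to 79156301, plus). No member shared exons with another gene on its own strand. *Slc7a2* overlapped exons of 1 gene and *Arg2* those of 2 genes on the opposite strand, and whether the counting used strand is not given in the sources used here. For *Nos2*, *Asl*, *Arg1* and *Arg2*, no stretch of 40 bases in their transcripts occurred in the transcripts of another gene. For *Ass1*, 41.0% of such stretches also occurred in the processed pseudogene *Gm5424*, so reads of those stretches could be split or dropped. The other stretches of *Ass1* occurred in no other gene. For *Spr* the share was 3.78%, and for *Gch1*, *Pts*, *Slc7a1* and *Slc7a2* it was 0.88% or less.

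The promoters of the 3 tetrahydrobiopterin enzymes are shown because their genes parted after stimulation: *Gch1* rose, and neither *Pts* nor *Spr* passed the test. RefSeq's table of promoters for GRCm38.p6 held 5 of the 10 members. Each sequence ends at the base before the start of the annotated transcripts, at chr14:47189414-47189663 for *Gch1*, chr9:50528725-50528906 for *Pts* and chr6:85137767-85138014 for *Spr*, all 3 read 5′ to 3′ on the minus strand. Capitals mark matches to the motifs searched.
*Gch1*: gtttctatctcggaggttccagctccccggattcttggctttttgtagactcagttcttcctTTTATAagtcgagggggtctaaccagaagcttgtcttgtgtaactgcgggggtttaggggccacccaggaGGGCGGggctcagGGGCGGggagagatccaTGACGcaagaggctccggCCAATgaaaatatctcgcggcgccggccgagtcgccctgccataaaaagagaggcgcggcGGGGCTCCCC
*Pts*: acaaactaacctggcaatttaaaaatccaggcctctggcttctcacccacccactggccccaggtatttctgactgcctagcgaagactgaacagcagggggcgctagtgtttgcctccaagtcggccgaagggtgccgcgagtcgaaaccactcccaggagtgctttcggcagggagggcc
*Spr*: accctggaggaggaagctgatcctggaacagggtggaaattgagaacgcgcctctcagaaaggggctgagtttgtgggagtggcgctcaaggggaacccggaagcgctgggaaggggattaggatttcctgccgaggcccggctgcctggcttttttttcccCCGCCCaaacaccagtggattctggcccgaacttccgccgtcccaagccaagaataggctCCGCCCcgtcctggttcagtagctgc
The motifs, searched on both strands in the 250 bases before RefSeq's start, were the CCAAT box, the Sp1 box with the letters GGGCGG, the TATA box with TATAAA, the first part of a cAMP response element with TGACG, and the NF-κB consensus. The *Gch1* promoter held 2 Sp1 boxes, 1 CCAAT box, 1 match to the cAMP response element, 1 TATA box on the opposite strand and, in the last 10 bases, 1 match to the NF-κB consensus, none of them overlapping. Of 32851 promoters in the table, 3.9% held an NF-κB match, 33.8% a CCAAT box, 32.7% an Sp1 box, 17.8% a match to the cAMP response element and 12.4% a TATA box. The *Spr* promoter held 2 Sp1 boxes and no other motif searched. The *Pts* promoter held 1 Sp1 box, in the stretch next to RefSeq's start that GENCODE places inside a transcript and that is not printed. A match is a string of letters and was not tested as a site.

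*Nos2* went from a few counts to a place among the 508 genes with most counts in every stimulated library. In unstimulated control cells its 3 libraries held 3, 7 and 5 counts, and in unstimulated *Adam17*-KD cells 1, 5 and 4 counts. In stimulated control cells they held 8509, 4156 and 10394 counts, or 506, 315 and 504 CPM (442 ± 110, SD, n = 3). In stimulated *Adam17*-KD cells they held 13588, 14876 and 6787 counts, or 733, 898 and 527 CPM (719 ± 186, SD, n = 3). Unstimulated and stimulated libraries lay orders of magnitude apart, as the plot of levels by library shows. Ranked by count within its library, *Nos2* moved from place 14470 to 17570 without cytokines to place 295, 508 and 295 in stimulated control cells and 153, 114 and 246 in stimulated *Adam17*-KD cells. The log2 fold change was 10.93 ± 0.39 (SE, adjusted p = 2.89e-10) in control and 12.03 ± 0.41 (adjusted p = 2.93e-10) in *Adam17*-KD cells, the 3rd largest rise of the 14673 genes tested in each. Without replicate 2 of the stimulated control cells the former was 11.13. Because the denominators are small, the sizes are uncertain, and the SE, derived from the test's F value, is only approximate here. The summed counts, divided by the scaled totals, gave a ratio of 2090 (95% interval of counting error, 1267 to 3735) in control cells and 4427 (2407 to 9232) in *Adam17*-KD cells. The other NO synthases were not induced to a testable level, since *Nos1* (neuronal) and *Nos3* (endothelial) had mean levels of 0.106 to 0.261 CPM over the 4 groups and did not pass the filter.

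**Figure D1:**
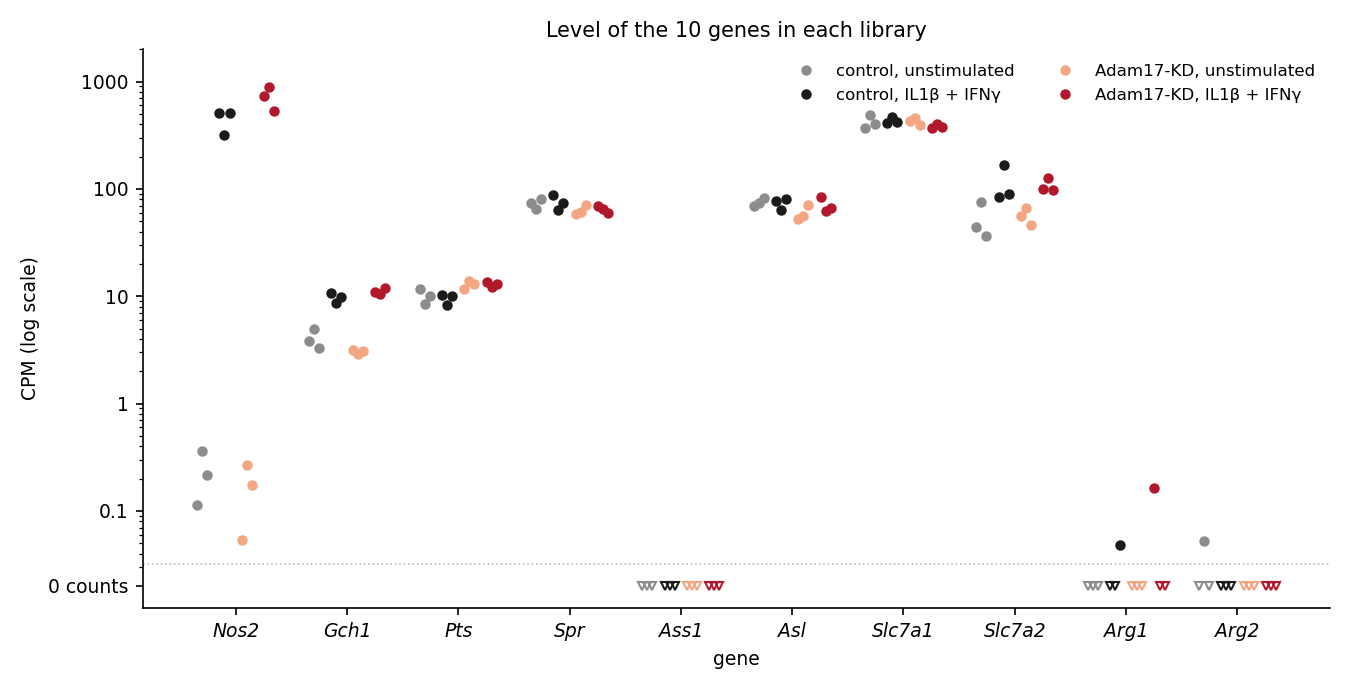
Level of each of the 10 genes in each of the 12 libraries, in CPM on a log axis, with open triangles for libraries of 0 counts. *Nos2* lies between 0.0533 and 0.365 CPM in the 6 unstimulated libraries and between 315 and 898 CPM in the 6 stimulated ones, and *Ass1* has 0 counts throughout.

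Among the enzymes of tetrahydrobiopterin synthesis only *Gch1*, which sets the rate of the pathway, was called after stimulation. Its control libraries read 3.83, 4.90 and 3.31 CPM without and 10.8, 8.72 and 9.75 CPM with cytokines (4.01 ± 0.81 and 9.74 ± 1.02, SD, n = 3). In *Adam17*-KD cells they read 3.14, 2.91 and 3.10 CPM without and 11.1, 10.5 and 12.03 CPM with cytokines (3.05 ± 0.13 and 11.2 ± 0.77). All 6 stimulated libraries lay above all 6 unstimulated ones. The log2 fold change was 1.28 ± 0.19 (SE, adjusted p = 0.000391) in control and 1.87 ± 0.20 (adjusted p = 1.49e-05) in *Adam17*-KD cells. Without replicate 2 of the stimulated control cells the first of these was 1.36 (adjusted p = 0.000406). Even after its rise *Gch1* stayed a low mRNA, with 115 to 205 counts in a stimulated library.

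*Pts*, whose enzyme takes the middle step, did not follow *Gch1*. It measured 11.8, 8.50 and 10.0 CPM in unstimulated and 10.2, 8.27 and 10.1 CPM in stimulated control cells, and 11.8, 13.8 and 13.0 CPM and then 13.5, 12.3 and 13.0 CPM in *Adam17*-KD cells. The stimulated and unstimulated libraries overlapped in each kind of cell, with log2 fold changes of -0.09 ± 0.17 (adjusted p = 0.904) and 0.01 ± 0.17 (adjusted p = 0.992). Without replicate 2 of the stimulated control cells the former was 0.0017. *Spr*, the enzyme of the last step, was the most abundant of the 3 and ranged from 58.4 to 87.3 CPM over all 12 libraries. Its log2 fold changes were 0.04 ± 0.14 (95% interval -0.27 to 0.34, adjusted p = 0.954) and 0.03 ± 0.14 (-0.28 to 0.33, adjusted p = 0.961), the former being 0.14 without replicate 2 of the stimulated control cells. Of 7 other genes of tetrahydrobiopterin synthesis and recycling, 4 were tested and 0 called in either response, with a median log2 fold change of -0.02 in control and 0.19 in *Adam17*-KD cells against -0.03 and 0.00 over all genes. *Qdpr*, which regenerates tetrahydrobiopterin after use, averaged 98.6 to 121 CPM over the 4 groups. *Pcbd1*, which acts before Qdpr in recycling, averaged at most 0.0178 CPM, while its paralogue *Pcbd2* averaged 10.5 to 13.9 CPM. *Gchfr*, the protein through which tetrahydrobiopterin feeds back on Gch1, averaged 0.0198 CPM in stimulated control cells and had 0 counts in the other groups. For *Pcbd1* and *Gchfr* a loss of reads in alignment or counting, which are not described in the sources used here, cannot be told apart from absence.

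The 2 arginine importers differed in level and in response. *Slc7a1*, the constitutive carrier of most cells, ranged from 367 to 492 CPM over the 12 libraries. Its log2 fold change was 0.04 ± 0.13 in control cells (95% interval -0.23 to 0.31, adjusted p = 0.945) and -0.16 ± 0.13 in *Adam17*-KD cells (-0.43 to 0.11, adjusted p = 0.623), and the groups overlapped. Without replicate 2 of the stimulated control cells the former was -0.02. *Slc7a2*, the carrier that macrophages induce together with *Nos2*, read 44.0, 75.5 and 36.4 CPM in unstimulated and 83.5, 166 and 90.2 CPM in stimulated control cells. In *Adam17*-KD cells it read 55.8, 66.7 and 46.2 CPM without and 99.7, 127 and 98.1 CPM with cytokines. The stimulated libraries lay above the unstimulated ones in each kind of cell, and replicate 2 was the highest library in each of the 4 groups. The rise was called in control cells (1.12 ± 0.29, adjusted p = 0.0286) and not in *Adam17*-KD cells (0.94 ± 0.29, adjusted p = 0.0663), and the difference between these responses was -0.18 ± 0.40 (95% interval -1.04 to 0.69, adjusted p = 1) and 0.20 without replicate 2 of the stimulated control cells, so the 2 kinds of cell were not shown to differ.

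The call for *Slc7a2* depended on single libraries. In control cells the rise was 0.74 (adjusted p = 0.0914) without replicate 2 of the stimulated cells, 1.02 (0.142) without replicate 1 and 0.92 (0.133) without replicate 3 of the unstimulated cells, and 1.13 (0.103) in a fit of the 2 groups alone, and it stayed called with the replicate number as a block (1.12, adjusted p = 0.000327). In *Adam17*-KD cells it was called without replicate 2 of the stimulated control cells (0.94, adjusted p = 0.0118), without replicate 2 of the unstimulated control cells (0.94, adjusted p = 0.0285), with DESeq2 (0.93, adjusted p = 0.0248), without the filter on low counts (0.94, adjusted p = 2.97e-07) and in a fit of the 2 groups alone (0.92, adjusted p = 0.00389). It was also called there with the replicate number as a block (0.95, adjusted p = 0.00120). Deviations of same-numbered libraries from their group mean correlated at -0.23, 0.34 and -0.16 between these 2 groups. The direction was upward in every one of these fits. Without the filter the size in *Adam17*-KD cells stayed at 0.94 while the adjusted p fell, and the cause was not tested.

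**Figure D2:**
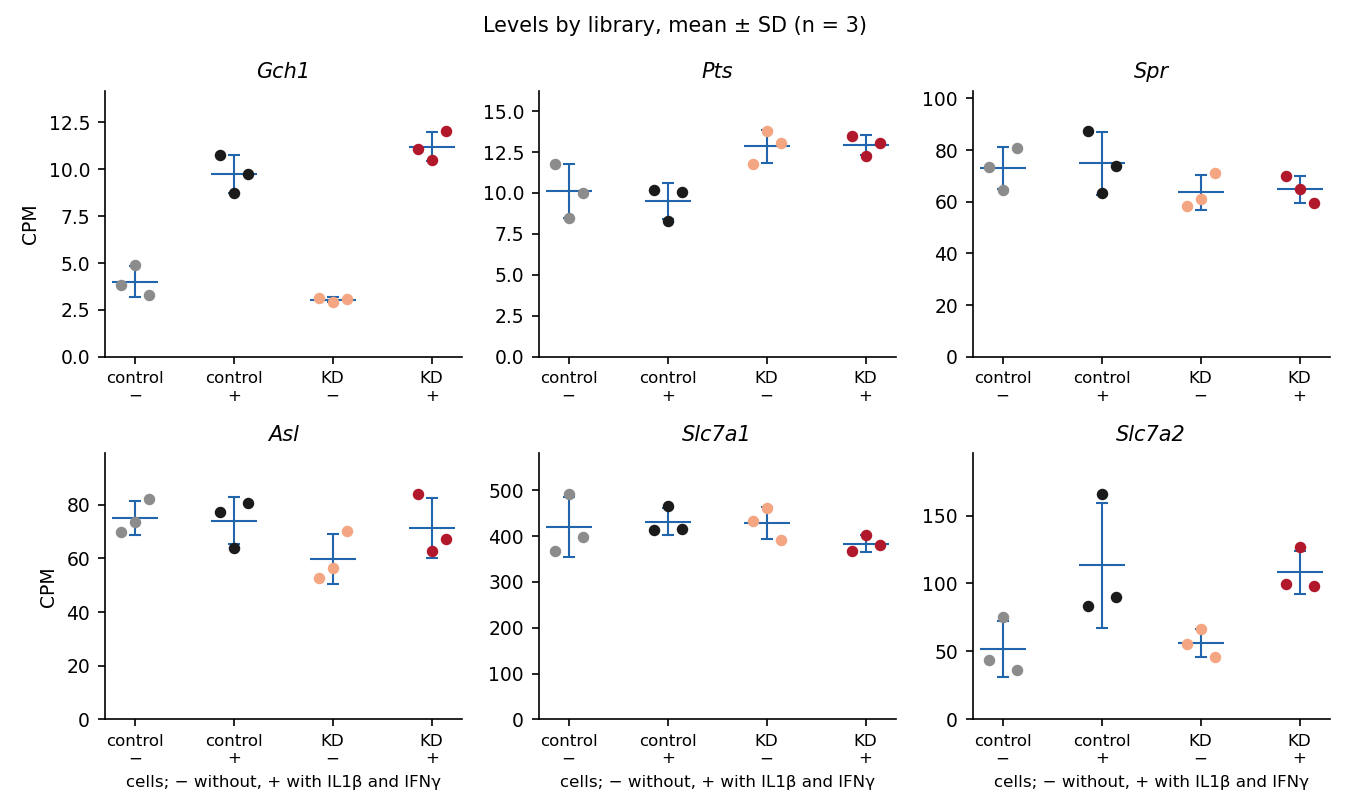
CPM of 6 genes by library (points) with the mean and SD of each group (n = 3, blue), each panel from 0. *Gch1* rises from 3.05 to 4.01 CPM on average without cytokines to 9.74 and 11.2 CPM with them, *Slc7a2* rises with a wide spread (36.4 to 166 CPM over all libraries), and *Pts*, *Spr*, *Asl* and *Slc7a1* show overlapping stimulated and unstimulated libraries.

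The genes that recycle citrulline to arginine had unequal counts. *Ass1*, which joins citrulline to aspartate, had 0 counts in all 12 libraries. That allows at most 3 counts, or 0.114 to 0.233 CPM in a single library and 0.0132 CPM over the 227515382 counts of all libraries, for counting error only. Its pseudogene *Gm5424* had 0 counts as well, and how reads that match both were treated is not given in the sources used here. For *Ass1*, therefore, a loss of reads in alignment or counting cannot be told apart from absence. Of 2369 stretches of 40 bases in *Ass1*, 971 also occurred in *Gm5424*, and the others occurred in no other gene. *Asl*, which releases arginine from the product of Ass1, ranged from 52.7 to 84.1 CPM. Its log2 fold change was -0.02 ± 0.15 (adjusted p = 0.979) in control and 0.25 ± 0.15 (95% interval -0.07 to 0.58, adjusted p = 0.459) in *Adam17*-KD cells, and the groups overlapped. The former was 0.08 without replicate 2 of the stimulated control cells. The urea cycle genes that make citrulline in liver were near 0 too, with mean levels of at most 0.265 CPM for *Cps1* and 0.0504 CPM for *Otc*. None of the 5 other genes of the urea cycle and of citrulline release from proteins was tested.

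Neither arginase was detected beyond a few counts. *Arg1*, the cytosolic enzyme of liver and of alternatively activated macrophages, had 1 count in replicate 3 of the stimulated control cells, 3 counts in replicate 1 of the stimulated *Adam17*-KD cells and 0 counts in the other 10 libraries. *Arg2*, the mitochondrial enzyme, had 1 count, in replicate 2 of the unstimulated control cells. These are at or under the limit that 3 counts set, and no change of either gene was detectable at this depth. *Odc1*, which makes putrescine from ornithine, was abundant all the same, at 423 to 657 CPM on average over the 4 groups.

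In control cells 3 of the 7 tested members were called higher (*Nos2*, *Gch1* and *Slc7a2*) and 0 lower, where 5.75% of all genes tested were called higher. Without replicate 2 of the stimulated control cells 2 of 7 were, *Nos2* and *Gch1*. The median log2 fold change of the 7 was 0.04 against -0.03 over all genes. In *Adam17*-KD cells 2 of 7 were called higher (*Nos2* and *Gch1*), where 6.37% of all genes were, and the median was 0.25 against 0.00. By libraries that do not overlap, 3 of 7 separated in each response, the same *Nos2*, *Gch1* and *Slc7a2*, where 19.3% of genes did in control and 24.4% in *Adam17*-KD cells, in either direction. *Nos2* had at most 7 counts in an unstimulated library, so it passed the filter only through its stimulated libraries. A gene let in that way can only come out higher, so the shares over all genes are no yardstick for it.

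**Figure D3:**
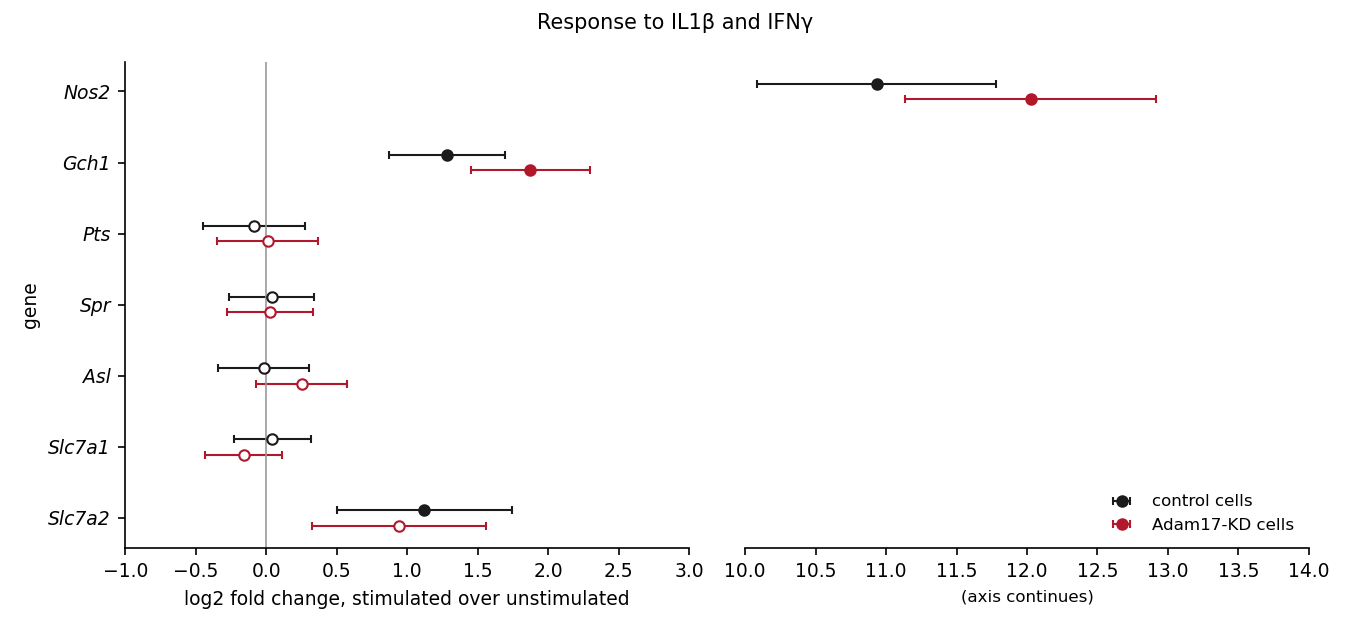
Log2 fold change of the 7 tested members on stimulation, with 95% intervals (only approximate for *Nos2*), in control (black) and *Adam17*-KD cells (red). Filled points were called at an adjusted p under 0.05; the axis is broken between 3 and 10 so that *Nos2* (10.93 and 12.03) is shown on the same scale as *Gch1* (1.28 and 1.87) and *Slc7a2* (1.12 and 0.94).

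The knockdown of *Adam17* was not shown to change any member. Without cytokines 0 of 7 members were called, where 0.470% of all genes were (69 genes, and 130 with the replicate number as a block, again with no member). With cytokines 0 of 7 were called, where 0.0341% of all genes were. Averaged over both conditions 0 of 7 were called, against 1.24% of all genes. With cytokines the *Nos2* levels of the 3 *Adam17*-KD libraries (733, 898 and 527 CPM) nonetheless all lay above those of the control libraries (506, 315 and 504 CPM). The log2 difference was 0.70 ± 0.23 (95% interval 0.21 to 1.19), with an unadjusted p of 0.00824 and an adjusted p of 0.633 over all genes. It was 0.51 (adjusted p = 0.544) without replicate 2 of the stimulated control cells, and between 0.51 and 0.88 when any single library was left out. When genes of low count were not filtered out, the difference was 0.69 with an adjusted p of 0.00359. That fit called 98 genes in this comparison, against 5 in the main fit, and the cause was not tested. Within each group the library with the lowest *Nos2* was also the shallowest, with 13156871 counts in control and 13201129 in *Adam17*-KD cells against 17451380 to 22366424 in the other 4, and the part of depth in the difference was not tested. The level of the nuclear RNA *Malat1*, 1500 CPM in that control library against 261 to 932 CPM in the other 5, was likewise not tested for its part. In unstimulated cells, at 15 and 10 counts in all, the difference was -0.39 ± 0.73 and the groups overlapped.

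*Pts* was the only member whose *Adam17*-KD libraries were higher on average under both conditions with a 95% interval above 0 for the averaged effect. That effect was 0.39 ± 0.12 (95% interval 0.14 to 0.65), with an adjusted p of 0.167 by edgeR and, in DESeq2, 0.41 with an adjusted p of 0.0252. With cytokines its libraries did not overlap (8.27 to 10.2 CPM in control and 12.3 to 13.5 CPM in *Adam17*-KD cells, 0.44 ± 0.17, adjusted p = 0.861, and 0.35 without replicate 2 of the stimulated control cells). Without cytokines they met at 11.8 CPM (0.35 ± 0.16, adjusted p = 0.673). The 3 unstimulated *Adam17*-KD libraries all had less *Gch1* than the 3 control libraries (-0.39 ± 0.20, adjusted p = 0.691), and 0.20 ± 0.18 higher with overlap after stimulation (0.13 without that library). Its response therefore came out larger in *Adam17*-KD than in control cells by 0.59 ± 0.27, with an unadjusted p of 0.0472 and an adjusted p of 1, and by 0.52 without replicate 2 of the stimulated control cells. After stimulation *Slc7a1* spanned 367 to 403 CPM in *Adam17*-KD and 413 to 466 CPM in control cells, without overlap, a log2 difference of -0.17 ± 0.13 (adjusted p = 1.00), or -0.11 without that library. Separation of this kind was seen in 3 of 7 members with cytokines, where 8.06% of genes showed it, and in 1 of 7 without, where 15.9% did. No other member separated, and *Spr*, *Asl* and *Slc7a2* had knockdown effects between -0.33 and 0.11 in either condition, where without that library *Slc7a2* had 0.32 with cytokines. The lowest of these was *Asl* without cytokines, at -0.33 ± 0.15 with overlapping libraries. Its 95% interval was -0.65 to -0.0054, with an unadjusted p of 0.0468 and an adjusted p of 0.653 by edgeR.

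No difference between the 2 cytokine responses was called, for 0 of 7 members and 0.00% of all genes. edgeR gave 222 of the 14673 genes tested at an unadjusted p under 0.05, *Gch1* among them, and DESeq2 called 1 gene. The 222 are a smaller share than the 0.05 that would fall there if no gene differed. For *Nos2* the difference was 1.09 ± 0.78 (95% interval -0.58 to 2.76, adjusted p = 1), and 0.90 without replicate 2 of the stimulated control cells.

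**Figure D4:**
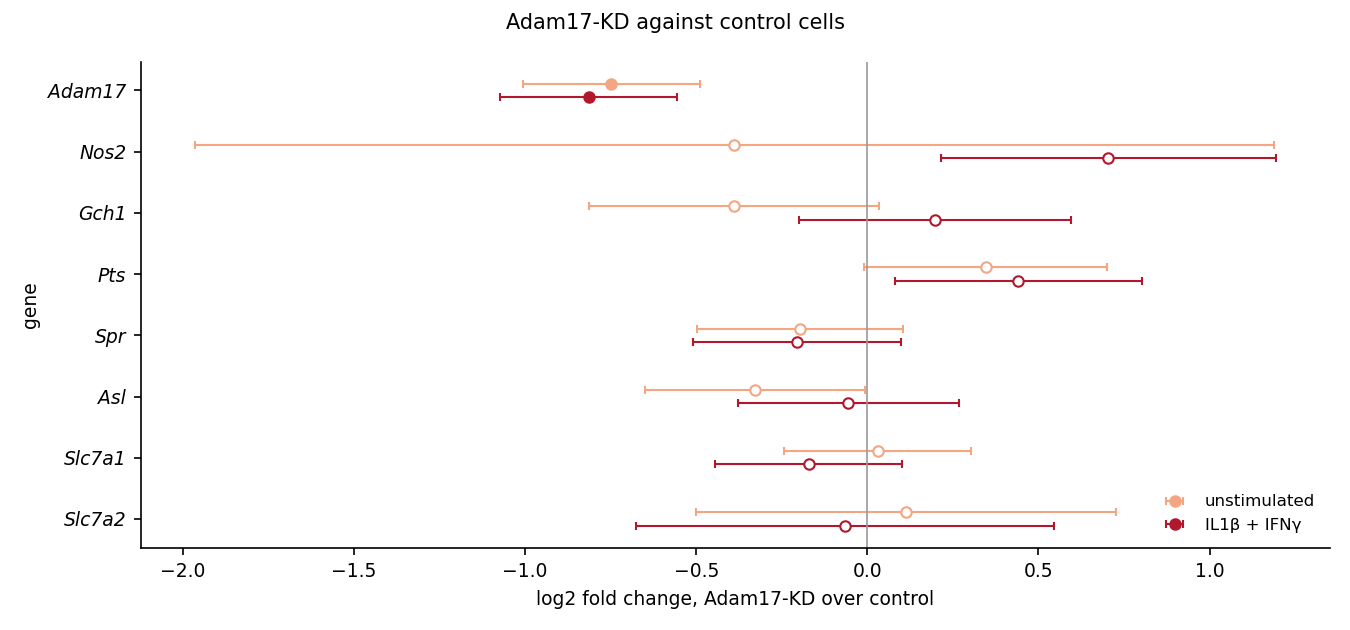
Log2 difference of *Adam17*-KD over control cells for *Adam17* and the 7 tested members, unstimulated (orange) and stimulated (red), with 95% intervals; filled points were called. *Adam17* lies at -0.75 and -0.81, and the member farthest from 0 after stimulation is *Nos2* at 0.70 (0.21 to 1.19), which was not called.

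Several of the factors known to act on the *Nos2* promoter rose in the same libraries. Of 17 tested genes of that list, 7 were called higher and 0 lower in control cells and 9 and 0 in *Adam17*-KD cells. Of all genes tested, 5.75% were called higher in control and 6.37% in *Adam17*-KD cells. The list's medians were 0.43 and 0.53, against -0.03 and 0.00 over all genes. The part of these factors in the rise of *Nos2* was not tested. *Irf1*, a factor that IFNγ induces, rose from 59.3 ± 7.50 to 1954 ± 347 CPM in control cells (log2 5.04 ± 0.18, adjusted p = 2.89e-10) and by 4.34 ± 0.18 in *Adam17*-KD cells (adjusted p = 1.12e-09). *Nfkbiz*, an NF-κB cofactor that IL1β induces, rose by 3.24 ± 0.20 and 3.06 ± 0.20 (adjusted p = 5.45e-08 and 1.04e-07). *Cebpd* rose by 1.72 ± 0.21 and 2.57 ± 0.22 (adjusted p = 7.52e-05 and 2.25e-06). The NF-κB subunits *Nfkb1*, *Nfkb2* and *Relb* were called in both as well, and *Cebpb* and *Jun* in *Adam17*-KD cells only, though no difference between the responses was called. *Rela*, the main activating subunit, measured 0.31 and 0.42 and was not called.

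Of 10 tested genes that act on *Nos2* mRNA or protein after transcription, 2 were called higher in each response, where 5.75% of all genes were in control and 6.37% in *Adam17*-KD cells. *Zfp36* (tristetraprolin), which binds AU-rich mRNAs and promotes their decay, rose by 2.29 ± 0.15 (adjusted p = 1.11e-07) in control and 2.35 ± 0.15 (adjusted p = 1.10e-07) in *Adam17*-KD cells. *Spsb1*, an adaptor that marks the Nos2 protein for degradation, rose from 12.7 ± 4.81 to 34.4 ± 12.9 CPM (1.43 ± 0.30, adjusted p = 0.00714) and by 1.29 ± 0.30 (adjusted p = 0.0128). The stabilising protein *Elavl1* (HuR) measured -0.04 and 0.25 and was not called. The list's medians were 0.03 and 0.18, against -0.03 and 0.00 over all genes.

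Other uses of arginine were followed in 18 tested genes of polyamine, proline and creatine synthesis. In each response 2 were called higher and 0 lower, where 5.75% of all genes were called higher in control and 6.37% in *Adam17*-KD cells, with medians of 0.03 and 0.06 against -0.03 and 0.00 over all genes. *Gatm*, which transfers the amidino group of arginine to glycine on the way to creatine, rose by 0.67 ± 0.14 (adjusted p = 0.00870) and 0.71 ± 0.14 (adjusted p = 0.00511). *Azin2*, an inhibitor of the antizymes that restrain Odc1, rose from 2.00 ± 0.72 to 5.60 ± 2.28 CPM (1.48 ± 0.35, adjusted p = 0.0165) and by 1.97 ± 0.35 (adjusted p = 0.00184). In the averaged knockdown effect 1 gene of this list was called, *Odc1*, which fell by 0.43 ± 0.09 on the log2 scale (adjusted p = 0.0315). Of all genes tested, 0.184% were called lower in that effect.

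The remaining lists had no called gene in any comparison. They were 9 tested genes of cationic amino acid transport (medians of -0.09 in control and 0.04 in *Adam17*-KD cells), 6 of NO synthases and their partners (-0.12 and -0.07), 9 of methylarginine formation and removal (0.11 and 0.05) and 7 of NO targets and removal (0.01 and 0.11). *Ddah1* and *Ddah2*, which degrade the natural inhibitors of NO synthase, averaged 10.1 to 14.1 CPM over the 4 groups. The subunits of the NO receptor guanylate cyclase, *Gucy1a3* and *Gucy1b3*, averaged at most 0.036 CPM. The markers of other cells that moved were fibroblast genes: after stimulation 2 of 6 tested were called lower in control cells, and 1 higher and 3 lower in *Adam17*-KD cells. Of all genes, 1.06% were called lower in control cells, and 6.37% higher and 1.53% lower in *Adam17*-KD cells. In *Adam17*-KD against control cells 1 of the 6 was called higher without cytokines (median 0.68), 0 with them (median 0.62) and 2 in the averaged effect (median 0.61). The shares of all genes called higher were 0.429%, 0.0273% and 1.06%. The part of these shifts in the members' levels and knockdown effects was not tested.

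**Figure D5:**
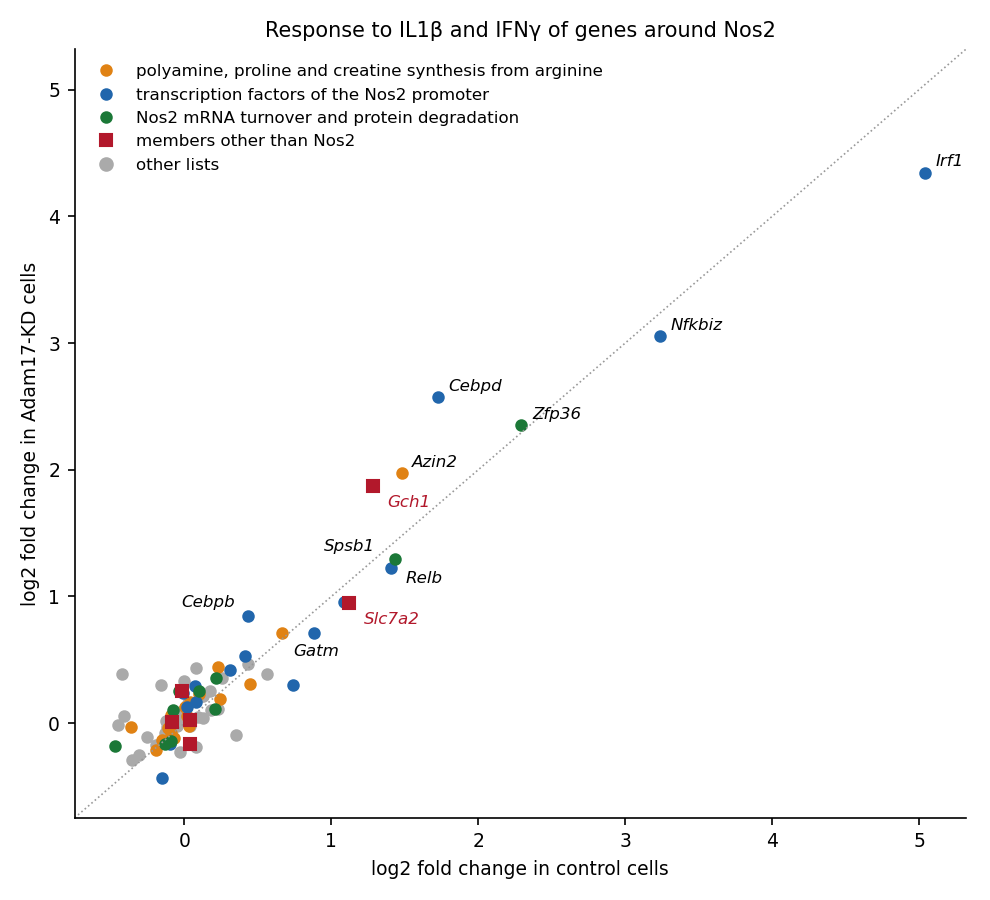
Response to IL1β and IFNγ (log2 fold change) of tested genes around *Nos2*, in control (x axis) and *Adam17*-KD cells (y axis), which share no libraries. Members other than *Nos2* are red squares, the dotted line marks equal responses, and *Irf1* (5.04 and 4.34) lies farthest out, while most genes of the pathway lie near 0.

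Per length, the order of the members changed on stimulation. Levels per kilobase used the union of annotated exons, 1.43 to 11.5 kb, which overstates the length where most transcripts are short. In unstimulated cells the order was *Slc7a1*, *Spr*, *Asl*, *Slc7a2*, *Pts*, *Gch1* and *Nos2*, from 36.4 ± 5.61 CPM per kb for *Slc7a1* to 0.0524 ± 0.0286 for *Nos2* in control cells. In stimulated cells *Nos2* was first, at 100.1 ± 24.8 CPM per kb in control and 163 ± 42.2 in *Adam17*-KD cells, ahead of *Slc7a1* at 37.4 ± 2.58 and 33.3 ± 1.57. *Gch1* and *Pts* were last of the 7, at 1.56 ± 0.16 and 1.56 ± 0.18 CPM per kb in stimulated control cells, where their libraries overlapped. *Asl* and *Slc7a2* overlapped too, at 15.3 ± 1.84 and 12.4 ± 5.02. In stimulated *Adam17*-KD cells *Spr* overlapped *Asl*, and *Asl* overlapped *Slc7a2*. No neighbours in the order overlapped in unstimulated cells.

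The genes whose levels ran most like those of *Nos2* were named by Pearson's r of log2(CPM + 0.5) over the 12 libraries, among the 13051 genes that averaged 20 counts or more. They were *Batf2*, *Apol6*, *Serpina3f*, *Serpina3g* and *Pnp*, with r from 0.998 to 0.999, and 40 genes exceeded 0.99. Since 6 libraries were stimulated and 6 were not, any gene with a large and even response comes close to 1. *Batf2* went from 0.345 ± 0.109 to 149 ± 39.1 CPM in control cells and from 0.389 ± 0.160 to 177 ± 21.9 CPM in *Adam17*-KD cells. *Pnp*, purine nucleoside phosphorylase, rose from a high start, 54.6 ± 2.06 to 256 ± 32.3 CPM in control cells. Among the members r was 0.97 for *Gch1*, 0.83 for *Slc7a2* and between -0.23 and 0.29 for *Pts*, *Spr*, *Asl* and *Slc7a1*.

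Within the 6 stimulated libraries, after the mean of each group was subtracted, other genes came first, among them *C1ra*, *Pmepa1*, *Ltbr* and *RP23-5K7.4*, a gene named by its clone, with r from 0.995 to 0.997. *C1ra*, a complement protease, read 47.9 to 78.9 CPM in stimulated control and 92.6 to 158 CPM in stimulated *Adam17*-KD cells. *Gch1* had an r of 0.14 and *Slc7a2* of -0.46 on this measure. Replicate 2 of the stimulated *Adam17*-KD cells was highest in *Nos2* and *Slc7a2* and lowest in *Gch1*, and replicate 2 of the stimulated control cells was highest in *Slc7a2* and lowest in *Nos2* and *Gch1*. With 6 points that share library depth, these values are descriptions only.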

How the data were processed

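RNA was measured in 12 libraries of poly(A)+ RNA made with an Ion Total RNA-Seq kit. The authors deposited a table of counts per gene, whole numbers that they did not normalise. Per the labels the build was mm10. The aligner, the counter and the annotation are not given in the sources used here. The deposited tables of the authors' own comparisons (fold changes, p-values) were not used. Of 43271 gene lines, 2 whose names had become dates (0.00808% of the counts) were left out.

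The analysis used edgeR 4.0.16 on R 4.3.3 (filterByExpr, TMM, quasi-likelihood test, 1 mean per group, 8 residual degrees of freedom). Contrasts were the 2 cytokine responses, their difference, and the *Adam17*-KD effect without cytokines, with them and averaged. The script was tested on simulated data. All 10 members, *Adam17*, up to 4 called genes per list with the largest changes, and the 5 genes most like *Nos2* on each measure were to be named, predicted genes aside; further genes of the lists were named after their values were seen. Some genes that this rule takes in are not reported here. Members, 9 pathway lists and 4 marker lists were chosen with earlier results of these data known. Alternatives were DESeq2 1.42.0, voom in limma 3.58.1, RLE scaling, no filter, a mean of at least 50 counts, only the groups compared, a replicate block and each library left out. Deviations from the group mean of same-numbered libraries correlated above 0.1 in all 3 pairs between unstimulated and stimulated control cells (0.16 to 0.56). The same held between control and *Adam17*-KD cells without cytokines (0.25 to 0.52). Over all 18 pairs of same-numbered libraries the correlations ran from -0.28 to 0.56, and 12 were above 0.1. The main fit used no block, and the replicate block was an alternative. The labels do not say what a number marks. The SE of a log2 difference was its size divided by the square root of edgeR's F value. The 95% intervals of log2 differences were built from that SE and include the spread between libraries. For *Nos2*, with 15 and 10 counts without cytokines, this SE is only approximate. It was 0.39 and 0.41 for the 2 responses but 0.73 for the difference between the unstimulated groups. The interval of the *Nos2* ratio of summed counts and the limits set by 3 counts cover counting error only.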

Additional observations from a re-analysis of the deposited data

How the results depend on the processing

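*Nos2* and *Gch1* were called higher in both cytokine responses under every alternative run. Leaving out each library in turn gave 10.57 to 11.36 and 11.63 to 12.45 for *Nos2* and 1.16 to 1.45 and 1.82 to 1.92 for *Gch1* (log2, control and *Adam17*-KD cells). No member was called in a knockdown effect except *Pts* in the averaged effect with DESeq2 (1 member) and *Nos2* with cytokines without the filter (1 member). The cause was not tested. With the replicate block, *Slc7a2* was called in *Adam17*-KD cells (0.95, adjusted p = 0.00120), and no other call of a member changed; the numbers there did not pair by the correlation of deviations. Genes called in the knockdown effect without cytokines numbered 130 with the replicate block, 230 with DESeq2, 223 without the filter and 10 to 126 with single libraries left out, against 69. With cytokines they numbered 11 with the block, 74 with DESeq2, 98 without the filter, 3 in a fit of the groups compared and 0 to 6 with single libraries left out, against 5. For the averaged effect they numbered 302, 443 and 406 under the first 3 of these and 69 to 234 with single libraries left out, against 182. For the difference between the responses 1 gene was called with DESeq2 and 18 without the filter, against 0.

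Some uncalled values near 0 changed sign. *Pts* in *Adam17*-KD cells on stimulation was -0.0093 with DESeq2, -0.0091 with RLE scaling, -0.0017 without the filter and -0.013 in a fit of the groups compared, and *Slc7a2* was 0.0060 with voom in the knockdown effect with cytokines. With single libraries left out the response in control cells ran from -0.19 to 0.041 for *Pts*, -0.046 to 0.17 for *Slc7a1*, -0.088 to 0.14 for *Spr* and -0.086 to 0.075 for *Asl*, and in *Adam17*-KD cells from -0.069 to 0.045 for *Pts* and -0.050 to 0.093 for *Spr*. The difference between the responses ran from -0.033 to 0.20 for *Pts*, -0.12 to 0.12 for *Spr* and -0.55 to 0.20 for *Slc7a2*. The knockdown effect without cytokines ran from -0.057 to 0.16 for *Slc7a1*, -0.82 to 0.039 for *Nos2* and -0.088 to 0.48 for *Slc7a2*, that with cytokines from -0.24 to 0.32 for *Slc7a2* and -0.19 to 0.028 for *Asl*, and the average from -0.070 to 0.37 for *Nos2* and -0.076 to 0.21 for *Slc7a2*. Depth limits *Ass1*, *Arg1*, *Arg2* and unstimulated *Nos2*, which had at most 7 counts in a library. For *Ass1* a loss of reads in alignment or counting is a further limit that cannot be told apart from absence.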
